A study of Homo sapiens with 10 samples.

Results

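BDH1 and ALDH6A1 met the criteria set out below for opposite changes with the EAPP mutant of KLF11 and with wild type KLF11. The criterion for the EAPP change was an unadjusted p with a 1.5-fold change. Smaller opposite EAPP changes were more frequent. The cells were Panc1, an established human epithelial line from a pancreatic carcinoma. KLF11 is a Krüppel-like zinc finger transcription factor. The cells were transduced for 48 h at a multiplicity of infection of 150 with 1 of 5 adenoviruses. EAPP carries proline substitutions in the Sin3-interacting domain of KLF11, A347S is the variant uncoupled from WD40 proteins, Δ486 lacks the C-terminal stretch that couples to HP1 and histone methyltransferases, KLF11 is the wild type protein, and the empty vector (EV) serves as control. The constructs were overexpressed from a viral promoter in cells that keep their own KLF11 gene, and all 5 groups, EV included, received virus. Each group had 2 Affymetrix Human Gene 1.0 ST arrays, 10 in all. The methods and the extraction notes describe them as technical duplicates of RNA pooled from separate cultures, whereas the sample titles number them as biological replicates, so standard deviations and p-values here measure the spread between arrays. Expression is given on the log2 scale for each transcript cluster, a group of probes that the array assigns to a gene, as normalized by the authors with Robust Multiarray Analysis.

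All transcript clusters of both genes were taken, which were 1 cluster of BDH1 and 2 of ALDH6A1, of 20961 clusters with a gene symbol and 28869 in all. Both genes had been selected on these same arrays, by their change with wild type KLF11 and their opposite change with EAPP, both against EV. Their differences in those comparisons, and between EAPP and the other constructs, are therefore given as descriptions without a test. Of the ALDH6A1 clusters, the brighter stands for the gene and the other is described as the second cluster. The array medians lay between 6.81 and 6.87, and the arrays of a group correlated at 0.996 to 0.997 across clusters. KLF11 itself read 8.78 and 8.68 with EAPP, 8.85 and 8.88 with A347S, 8.72 and 8.83 with Δ486, 8.82 and 8.85 with wild type KLF11, and 8.37 and 7.75 with EV, so its lowest reading was the second EV array. Whether its probes detect the adenoviral transcript was not analysed here. The epithelial keratins KRT8 and KRT18 lay between 12.18 and 13.25, and KRT7 between 6.28 and 6.52. The duct keratin KRT19 ranged from 9.29 to 10.91 and varied with the constructs. It differed from EV by -0.994 with wild type KLF11 and by -0.441 with EAPP. The epithelial cadherin CDH1 stayed between 4.71 and 5.12, within the range of the markers of other cell types. The leukocyte, endothelial, stromal, islet, acinar and liver markers PTPRC, CD3E, PECAM1, COL3A1, GCG, PRSS1, CPA1 and ALB lay between 3.44 and 6.61. In bulk RNA, fewer cells expressing a gene and less of its RNA per cell cannot be told apart.

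Ketone bodies are made in liver mitochondria from acetyl-CoA and burned by other tissues when glucose is scarce. BDH1 is the 3-hydroxybutyrate dehydrogenase of the inner mitochondrial membrane, a short-chain dehydrogenase that converts acetoacetate to 3-hydroxybutyrate in the liver and back again where ketone bodies are used. ALDH6A1 is the methylmalonate-semialdehyde dehydrogenase of the mitochondrial matrix, which ends the breakdown of valine and of thymine by releasing propionyl-CoA, and makes acetyl-CoA from malonate semialdehyde. Both are NAD-dependent mitochondrial enzymes whose substrates feed the acyl-CoA pools.

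KLF11 binds GC-rich elements, for which the motifs CCCCGC and CCCCAC are given, and CACCC is the core element of the Krüppel-like family. The 250 bases before the RefSeq transcription starts of both genes (GRCh38.p14, minus strand in each case) are shown as the stretch on which these letters were searched, on both strands, with matches in capitals. BDH1 has a pair of starts in the table, and which of them Panc1 cells use was not analysed here. The windows are chr3:197573344-197573593 for the upstream start of BDH1, chr3:197555969-197556218 for its downstream start, and chr14:74084454-74084703 for ALDH6A1. They are printed 5′ to 3′ on the strand of the gene.
BDH1 upstream start: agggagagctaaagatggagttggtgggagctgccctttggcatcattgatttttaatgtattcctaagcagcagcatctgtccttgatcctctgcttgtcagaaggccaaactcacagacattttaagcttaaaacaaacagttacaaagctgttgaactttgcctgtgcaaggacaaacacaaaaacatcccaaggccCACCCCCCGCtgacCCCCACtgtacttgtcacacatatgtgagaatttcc
BDH1 downstream start: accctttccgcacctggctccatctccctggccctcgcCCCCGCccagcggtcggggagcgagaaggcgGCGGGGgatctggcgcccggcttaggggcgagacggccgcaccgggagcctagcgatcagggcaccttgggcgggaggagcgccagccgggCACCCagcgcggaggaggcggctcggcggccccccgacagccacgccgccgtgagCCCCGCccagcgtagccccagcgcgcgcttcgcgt
ALDH6A1: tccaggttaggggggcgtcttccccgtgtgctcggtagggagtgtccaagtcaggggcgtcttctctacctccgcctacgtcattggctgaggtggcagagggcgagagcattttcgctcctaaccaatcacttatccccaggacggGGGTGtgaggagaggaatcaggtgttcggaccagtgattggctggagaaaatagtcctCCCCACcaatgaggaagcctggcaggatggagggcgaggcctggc
The upstream BDH1 window held 1 CCCCGC, 1 CCCCAC and 1 CACCC, of which CACCC and CCCCGC overlap by a shared base, and all of them lay between 50 and 31 bases before the start. Its downstream window held 3 CCCCGC, 1 of them on the opposite strand, 0 CCCCAC and 1 CACCC. The ALDH6A1 window held 0 CCCCGC, 1 CCCCAC at 45 to 40 bases before the start, and 1 CACCC on the opposite strand. Such matches are common. CCCCGC occurs in 39.2%, CCCCAC in 30.3% and CACCC in 54.7% of the 34943 windows of this length in the table. The G and C content was 45.6% in the upstream BDH1 window, 77.6% in the downstream one and 59.6% for ALDH6A1, beside a median of 58.0% over all windows. A match is a run of letters and does not show that the factor binds.

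BDH1 was higher with EAPP than with EV and lower than EV with every other construct. It read 8.06 and 8.27 on the EAPP arrays, 5.99 and 6.01 with A347S, 5.84 and 5.87 with Δ486, 5.65 and 5.90 with wild type KLF11, and 7.03 and 6.92 with EV. Both EAPP arrays were above, and all 6 arrays of A347S, Δ486 and wild type KLF11 were below, both EV arrays. The group means were 8.16 ± 0.15 with EAPP, 6.00 ± 0.01 with A347S, 5.85 ± 0.02 with Δ486, 5.78 ± 0.17 with wild type KLF11 and 6.97 ± 0.08 with EV (SD, n = 2 arrays each). From high to low the order was EAPP, EV, A347S, Δ486 and wild type KLF11. The first 3 steps of this order separate all arrays of the neighbours, whereas the wild type arrays span the readings of Δ486.

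Against EV, the BDH1 level differed by 1.19 with EAPP on the log2 scale, a 2.28-fold higher signal, with a standard error of 0.10 that holds for every BDH1 difference. The differences from EV were -0.98 with A347S, -1.12 with Δ486 and -1.20 with the wild type, which correspond to a signal 1.97, 2.17 and 2.29 times lower. Among the 20961 clusters, that of BDH1 had the 3rd largest positive difference with EAPP. It had the 9th largest negative difference with wild type KLF11, the 25th with Δ486 and the 174th with A347S. Set directly against the other constructs, EAPP exceeded A347S by 2.17, Δ486 by 2.31 and wild type KLF11 by 2.39, or 4.49-fold, 4.96-fold and 5.24-fold. In each of these 3 comparisons BDH1 had the largest positive difference of all clusters. With any 1 of the arrays left out, the EAPP difference from EV lay between 1.08 and 1.30 and that of wild type KLF11 between -1.32 and -1.07.

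**Figure D1:**
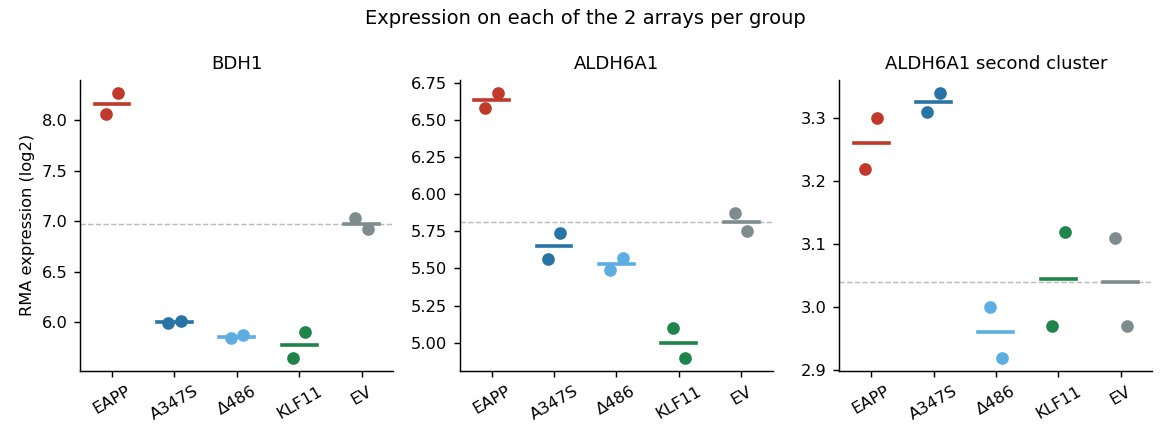
RMA expression (log2, vertical axes with a separate range in each panel) of BDH1, ALDH6A1 and the second ALDH6A1 cluster on each array of the 5 groups. Points are arrays, short bars are group means and the dashed line is the EV mean. BDH1 and ALDH6A1 lie above the dashed line with EAPP, at means of 8.16 and 6.63, and below it with the other constructs, whereas the second cluster stays between 2.92 and 3.34 throughout.

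ALDH6A1 showed the same signs, with smaller differences and another spacing of the groups. By mean level over all arrays it lay at the 29.3 percentile of the clusters tested, and BDH1 at the 44.7. The lowest readings of both genes lie within the range of the markers of other cell types, 3.44 to 6.61. Whether a floor of the signal limits their falls was not tested. The ALDH6A1 readings were 6.58 and 6.68 with EAPP, 5.56 and 5.74 with A347S, 5.49 and 5.57 with Δ486, 5.10 and 4.90 with wild type KLF11, and 5.87 and 5.75 with EV. Again both EAPP arrays were above both EV arrays and the 6 arrays of the other constructs were below, but the higher A347S array lay just under the lower EV array, at 5.74 beside 5.75. Group means were 6.63 ± 0.06 with EAPP, 5.65 ± 0.12 with A347S, 5.53 ± 0.06 with Δ486, 5.0 ± 0.15 with wild type KLF11 and 5.81 ± 0.08 with EV (SD, n = 2 arrays each). The order of the means was that of BDH1. Here the wild type arrays were apart from all others, and the A347S and Δ486 arrays overlapped.

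The ALDH6A1 differences from EV were 0.82 with EAPP, -0.17 with A347S, -0.28 for Δ486 and -0.81 for wild type KLF11 (standard error 0.10 each). The EAPP value is 1.76-fold higher and the wild type value 1.76-fold lower than EV, while A347S and Δ486 lay 1.12-fold and 1.22-fold below it, under the 1.5-fold used for calls. ALDH6A1 had the 5th largest positive difference with EAPP and the 85th largest negative difference with wild type KLF11. EAPP exceeded A347S by 0.98, Δ486 by 1.10 and wild type KLF11 by 1.63, or 1.97-fold, 2.14-fold and 3.10-fold. In the comparison of EAPP with wild type KLF11, ALDH6A1 came second to BDH1 alone among positive differences. The EAPP difference from EV stayed between 0.76 and 0.88 with single arrays left out. That of A347S lay between -0.25 and -0.08, and was -0.08 without the first A347S array.

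The second ALDH6A1 cluster did not follow the pattern. It read 3.22 and 3.30 with EAPP, 3.31 and 3.34 with A347S, 3.0 and 2.92 with Δ486, 2.97 and 3.12 with wild type KLF11, and 3.11 and 2.97 with EV. These readings lie near the lower end of the table, whose values run from 1.85 to 14.56. Against EV the cluster differed by 0.21 with EAPP, 0.28 with A347S, -0.08 for Δ486 and 0.00 for wild type KLF11 (standard error 0.08), all under the 1.5-fold. The statements on ALDH6A1 thus rest on its brighter cluster.

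**Figure D2:**
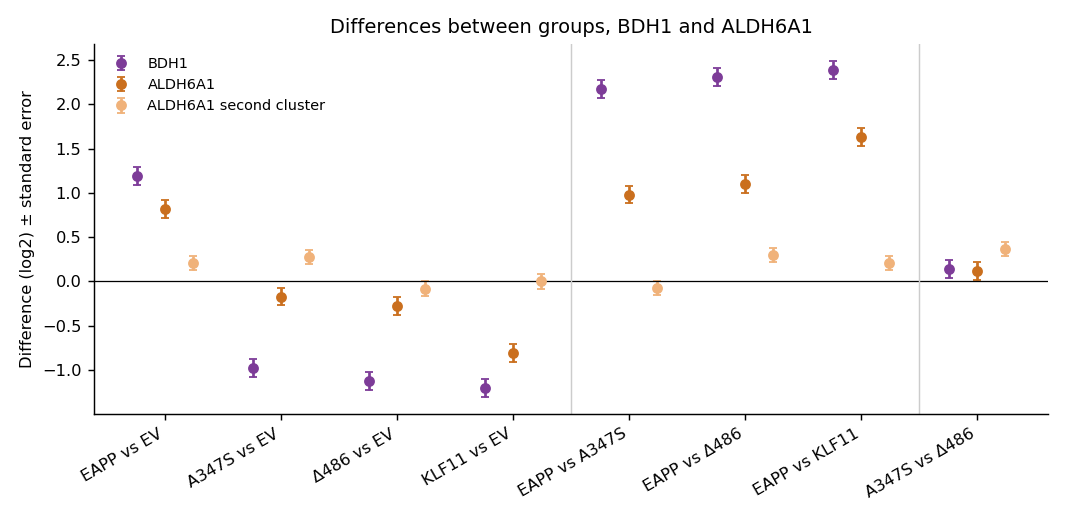
Difference between groups (log2, vertical axis) with its standard error from the linear model for BDH1, ALDH6A1 and the second ALDH6A1 cluster in 8 comparisons (horizontal axis). With EAPP against EV, BDH1 is at 1.19 and ALDH6A1 at 0.82. Both are below 0 with A347S, Δ486 and wild type KLF11, and BDH1 is furthest from 0 where EAPP is set against wild type KLF11, at 2.39.

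The difference between the mutants A347S and Δ486 is taken from none of the arrays on which the genes were selected. It was tested with limma's moderated test over all 20961 clusters. Its standard error comes from all 10 arrays, the selecting ones included, so the p-values and intervals are not independent of the selection. For BDH1 the SD was 0.01 with A347S and 0.02 with Δ486, but 0.15 with EAPP and 0.17 with wild type KLF11. Both A347S arrays of BDH1 lay above both Δ486 arrays. BDH1 was 0.14 higher with A347S than with Δ486 (standard error 0.10, limma adjusted p = 0.752, 95% interval -0.09 to 0.37). ALDH6A1 differed by 0.12 (limma adjusted p = 0.796, 95% interval -0.10 to 0.34), and its second cluster by 0.37 (limma adjusted p = 0.642, 95% interval 0.18 to 0.55). None passed after adjustment, and limma called 0% of all clusters in this comparison, with 1557 at an unadjusted p under 0.05. Adding the 1.5-fold to that p, limma gave 22 clusters and the methods' t-test 3. The interval of BDH1 leaves out any difference between these mutants of the size by which either lay below EV.

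The selection can be retraced on the array. Calls required a change of at least 1.5-fold together with a Benjamini-Hochberg adjusted p below 0.05 from limma. For EAPP against EV a looser unadjusted criterion was applied too, with the same fold but p below 0.05 before adjustment, because the study itself set no false discovery rate there. With wild type KLF11, 837 clusters were called, and in 135 of them the EAPP mean lay on the other side of EV, by any amount. EAPP met the unadjusted criterion in 38 clusters, 0.11% of those tested being higher and 0.0716% lower. With unnamed clusters added there were 75, and leaving out the first EAPP array gave 79. Of these 38, 22 had the sign of a called wild type change and 2, BDH1 and ALDH6A1, the opposite sign. At the adjusted p, 0.00477% of clusters were higher and 0% lower with EAPP, and the 1 cluster in question is that of BDH1, which was selected on this very contrast, so nothing is read from its call. That count was 0 without the second EAPP array, without either A347S array or without either EV array, and 1 without any 1 of the other 5. It was 21 with a variance trend and robust moderation, and 3 without the dimmest clusters. Since these fits reuse the arrays of the selection, nothing is read from the pair staying inside with every array left out. FAM200A joined it without the first EAPP array, CCDC28A and a cluster of several symbols without the second, and ZNF204P without the first EV array.

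The clusters just outside were those with the next largest opposite EAPP values. ALDOC, the brain aldolase of glycolysis, read 8.25 and 7.97 with EAPP, 7.14 and 7.11 with wild type KLF11, and 7.78 and 7.73 with EV. ACAT2, the cytosolic thiolase that makes acetoacetyl-CoA for sterol synthesis, read 11.30 and 11.30 with EAPP, 10.09 and 10.05 with wild type KLF11, and 10.92 and 10.98 with EV. Both differed from EV by 0.35 with EAPP, and by -0.63 for ALDOC and -0.88 for ACAT2 with the wild type. In the reverse direction, ZNF204P, a zinc finger pseudogene, differed by -0.57 with EAPP and 2.43 with wild type KLF11, with EAPP arrays at 3.56 and 3.46 and EV arrays at 3.82 and 4.33. CCDC28A, a coiled-coil protein, differed by -0.36 and 1.16, the membrane protein FAM174A by -0.35 and 1.28, and FAM200A by -0.34 and 0.67, in each case with EAPP first and wild type KLF11 second. The smaller of the EAPP differences inside, 0.82 of ALDH6A1, compares with an absolute 0.57 of ZNF204P as the largest outside.

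**Figure D3:**
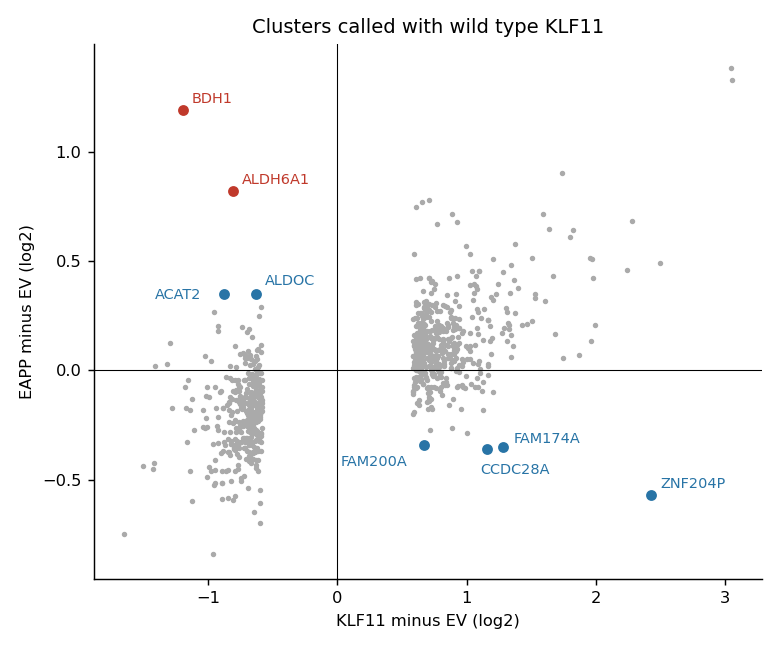
Difference from EV (log2) with EAPP, vertical axis, and with wild type KLF11, horizontal axis, for the 837 clusters called with wild type KLF11. The gap about 0 on the horizontal axis is the 1.5-fold threshold, red points are BDH1 and ALDH6A1, blue points are the 6 clusters just outside. The upper left holds 42 clusters, of which BDH1 at 1.19 and ALDH6A1 at 0.82 are the highest, and ALDOC and ACAT2 come next at 0.35. Both axes subtract the same EV arrays, so the spread of those arrays enters both. How far it tilts the cloud was not tested.

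An arrangement like that of the pair, with both EAPP arrays above both EV arrays and both arrays of A347S, Δ486 and wild type KLF11 below them, was held by 264 clusters, 1.26% of those tested, and its mirror image by 292. The arrangement was taken from the members' values, so it is a description. Ordered by the EAPP difference, BDH1 and ALDH6A1 came first and were followed by DHTKD1 at 0.56, MCCC1 at 0.42, ALDOC and ACAT2 at 0.35, HYKK at 0.30 and OXCT1 and GYS1 at 0.29. DHTKD1 is the 2-oxoadipate dehydrogenase of lysine and tryptophan breakdown, MCCC1 a subunit of the carboxylase of leucine breakdown, HYKK a kinase of hydroxylysine breakdown, OXCT1 the transferase that activates acetoacetate, and GYS1 the glycogen synthase of muscle.

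Expression across the 10 arrays correlated at Pearson r = 0.914 between BDH1 and ALDH6A1 (Spearman 0.903), a value which the selection partly fixes and for which the 5 groups, not the arrays, are the source of variation. Of 19228 other clusters with a single symbol, 108 correlated with BDH1 above 0.9, and ALDH6A1 had rank 68. With ALDH6A1, 13 did so, and BDH1 had rank 7. The 5 most alike to BDH1 were DHTKD1 (r = 0.983), the carbonyl reductase DCXR (0.969), the copine CPNE7 (0.962), GCAT, which ends threonine breakdown to glycine (0.962), and ACAT1, the mitochondrial thiolase that makes and splits acetoacetyl-CoA (0.954). DHTKD1 read 8.55 and 8.68 with EAPP, 7.77 and 7.72 with A347S, 7.78 and 7.81 with Δ486, 7.56 and 7.68 with wild type KLF11, and 8.02 and 8.09 with EV, so both EAPP arrays were above EV and the other 3 constructs below it, with smaller differences than for BDH1 and with A347S just under Δ486 in the mean. Most opposite to BDH1 were TUBE1, a tubulin of centrioles (r = -0.974), LZTR1 (-0.968), ZNF416 (-0.968), the chaperonin subunit CCT8 (-0.966) and PIGM (-0.963). TUBE1 differed from EV by -0.43 with EAPP, 0.41 with A347S, 0.34 with Δ486 and 0.47 with the wild type.

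The clusters most alike to ALDH6A1 were GYS1 (r = 0.965), MCCC1 (0.962), HSD17B10, the mitochondrial dehydrogenase of isoleucine breakdown (0.952), DHTKD1 (0.935) and ALDH4A1, the aldehyde dehydrogenase of proline breakdown (0.919). GYS1 read 7.79 and 7.91 with EAPP, 7.15 and 7.31 with A347S, 7.25 and 7.29 with Δ486, 7.02 and 6.92 with wild type KLF11, and 7.57 and 7.55 with EV. Like ALDH6A1 it was lowest with the wild type. HSD17B10 differed from EV by 0.12 with EAPP and -0.12 with wild type KLF11, since r takes no account of amplitude. Most opposite were PAK1IP1 (r = -0.940), the splicing factor PRPF19 (-0.939), GLMP (-0.936), NSMCE1 (-0.931) and PLEKHM2 (-0.928). DHTKD1 was the gene common to both lists. Membership is loose, since by Spearman's rho 0 of the 5 genes most alike to BDH1 and 2 of those most alike to ALDH6A1 were again among the first 5.

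**Figure D4:**
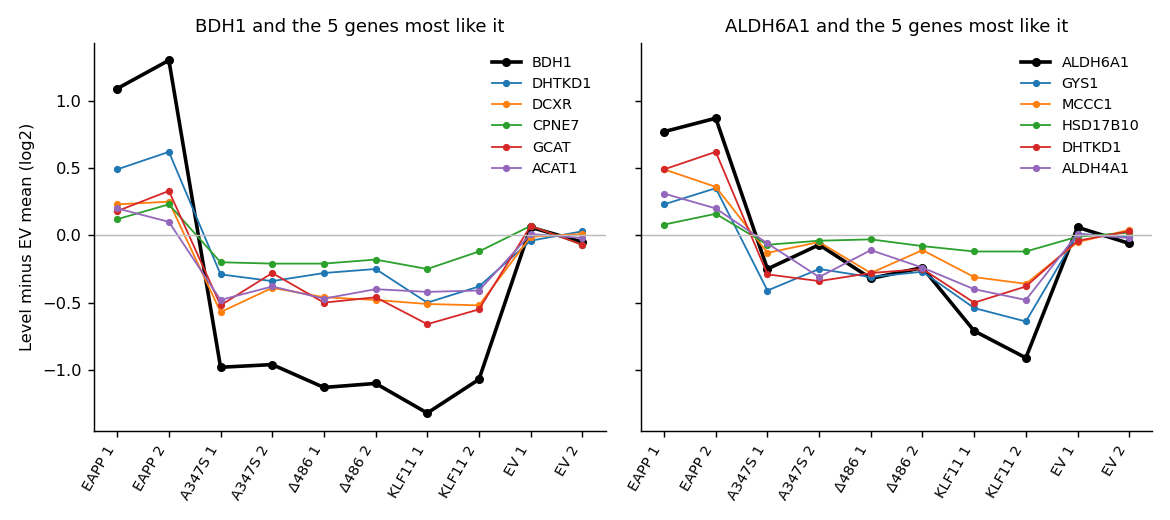
Level minus the EV mean (log2, vertical axis) on each of the 10 arrays (horizontal axis) for BDH1 with the 5 most correlated genes (left) and ALDH6A1 with its 5 (right). Lines join the arrays of a gene as a guide and carry no order. All lie above 0 with EAPP and below 0 with the other 3 constructs, and the means with EAPP are 1.19 for BDH1, 0.82 for ALDH6A1 and 0.56 for DHTKD1.

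The other genes of the members' pathways and families were taken from 8 lists, of which 54 of 60 genes were matched to a cluster. The remaining genes are not analysed here. With EAPP against EV, limma called 0 of the 54 higher and 0 lower. Beside that, 2 were called higher and 12 lower with A347S, where 3.63% and 5.35% of all clusters were. With Δ486, 1 was higher and 9 lower, against 2.38% and 3.23% of all clusters, and with wild type KLF11, 1 was higher and 7 lower, against 2.21% and 1.78%. EAPP against A347S gave 8 higher and 2 lower, with 2.94% and 3.07% over all clusters. EAPP against Δ486 gave 6 and 1, with 1.36% and 1.9%, and EAPP against wild type KLF11 gave 7 and 0, with 0.763% and 1.75%. After cyclic loess scaling between arrays, the clusters called with A347S split into 936 higher and 849 lower in place of 761 and 1121. Those with Δ486 became 567 and 557 in place of 499 and 677, and with wild type KLF11 522 and 301 in place of 463 and 374. EAPP against A347S gave 455 higher and 779 lower in place of 617 and 643. Against Δ486, EAPP gave 242 and 443 in place of 286 and 398, and against wild type KLF11 131 and 399 in place of 160 and 367. The median difference of the 54 genes from EV was 0.02 with EAPP, -0.04 with A347S, -0.04 with Δ486 and -0.06 with the wild type, next to 0.00, 0.01, 0.02 and -0.02 over all clusters. The arrangement of the pair was held by 6 of the 54, or 11.1%, beside 1.26% of all clusters. These were ACAT1, OXCT1, AACS, BCKDHB, PCCB and ALDH4A1. The arrangement was taken from the members' values and the lists were chosen with earlier results known, so this share is a description. None of the 6 was called with EAPP against EV. All these comparisons share the EV or the EAPP arrays.

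Around BDH1, the enzymes of ketone body synthesis and use were mostly not called. OXCT1, which takes up the acetoacetate that BDH1 yields, read 8.46 and 8.52 with EAPP, 8.01 and 8.03 with A347S, 7.77 and 8.06 with Δ486, 7.99 and 7.92 with wild type KLF11, and 8.17 and 8.23 with EV. Its EAPP arrays were the highest of all, and its differences from EV of 0.29 with EAPP, -0.18 with A347S, -0.28 with Δ486 and -0.24 with the wild type did not pass. ACAT1 read 10.14 and 10.04 with EAPP, 9.46 and 9.56 with A347S, 9.47 and 9.54 with Δ486, 9.52 and 9.53 with wild type KLF11, and 9.95 and 9.92 with EV. It was 0.59 higher with EAPP than with Δ486 (limma adjusted p = 0.00119), a call that just clears the 1.5-fold. It missed at 0.54 without the first EAPP array, at 0.56 without the first Δ486 array and at 0.56 after cyclic loess scaling. AACS, the cytosolic synthetase that sends acetoacetate to lipid synthesis, fell by 0.59 with A347S (limma adjusted p = 0.00105), and was at -0.56 without the first EV array and -0.51 after cyclic loess, both short of the fold. Its difference of EAPP from A347S, 0.62, was 0.55 after cyclic loess.

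BDH2, a cytosolic dehydrogenase that also acts on 3-hydroxybutyrate, did not share the pattern. It read 3.80 and 3.91 with EAPP, 4.40 and 4.55 with A347S, 3.70 and 4.08 with Δ486, 4.31 and 4.17 with wild type KLF11, and 4.11 and 4.12 with EV. These readings overlap those of the islet and liver markers GCG, at 3.74 to 4.03, and ALB, at 4.07 to 4.47. Whether BDH2 was expressed was not tested. It was lower by 0.62 with EAPP than with A347S (limma adjusted p = 0.00493), opposite in sign to BDH1, and by 0.57 or 0.55 without the first EAPP or the second A347S array, which miss the fold. The 3 measured genes of ketone transport and sensing gave 0 calls in any comparison. Over all clusters, at most 5.35% were called in any direction of a comparison, so 0 of 3 is close to that share. Of 4 measured short-chain dehydrogenases nearest to BDH1, HSD17B6, which acts on retinol and steroids, rose by 0.69 with A347S and by 0.71 with wild type KLF11 (limma adjusted p = 0.000675 and 0.00163). The A347S value was 0.57 without the first EV array. With EAPP HSD17B6 stood at 0.42 and did not pass.

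Around ALDH6A1, BCKDHB and BCAT2 of valine breakdown were called lower with A347S, Δ486 and wild type KLF11 alike. No measured gene of that list passed with EAPP. BCKDHB, a subunit of the branched-chain ketoacid dehydrogenase, read 9.58 and 9.49 with EAPP, 8.39 and 8.47 with A347S, 8.55 and 8.57 with Δ486, 8.39 and 8.23 with wild type KLF11, and 9.30 and 9.24 with EV. With A347S it fell by 0.84, with Δ486 by 0.71 and with the wild type by 0.96. It stood at 0.27 with EAPP and was 1.22 higher with EAPP than with the wild type (standard error 0.08, limma adjusted p = 0.000182). BCAT2, the mitochondrial aminotransferase of the first step, fell by 1.27 under A347S, by 1.04 under Δ486 and by 0.88 under the wild type. Its EAPP arrays, at 8.06 and 8.18, were below the EV arrays at 8.45 and 8.44, so it lacked the opposite sign. Of the 12 genes, 3 were lower with A347S, 2 with Δ486 and 3 with the wild type, and none was higher. Over all clusters, 5.35%, 3.23% and 1.78% were lower and 3.63%, 2.38% and 2.21% higher, in that order. DBT, another subunit of the dehydrogenase, fell by 0.67 with the wild type (limma adjusted p = 0.0135), with adjusted p = 0.0868 without the first wild type array and 0.0973 without the second EV array. PPM1K, the phosphatase that activates the dehydrogenase, was 0.63 higher with EAPP than with wild type KLF11 (limma adjusted p = 0.00463), and at 0.53 without the first EAPP array or 0.58 without the first wild type array it missed the fold.

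The enzymes directly before ALDH6A1 did not share its pattern. HIBADH, which makes its substrate from 3-hydroxyisobutyrate, read 9.20 and 9.25 with EAPP, 8.73 and 8.64 with A347S, 8.83 and 8.85 with Δ486, 8.85 and 8.77 with wild type KLF11, and 9.40 and 9.39 with EV. It fell by 0.71 with A347S and its EAPP arrays were below EV, at a difference of -0.17. HIBCH, the hydrolase 1 step earlier, stood at 0.09 with EAPP, 0.49 with A347S, 0.31 with Δ486 and 0.44 with the wild type, none past the fold. ABAT, an aminotransferase that leads from beta-alanine to malonate semialdehyde, differed from EV by 0.19 with EAPP, 0.09 with A347S, 0.01 with Δ486 and 0.05 with the wild type. The 5 genes of pyrimidine and beta-amino acid breakdown gave 0 calls in all 7 comparisons. Over all clusters, at most 5.35% were called in any direction of a comparison, so 0 of 5 is close to that share.

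**Figure D5:**
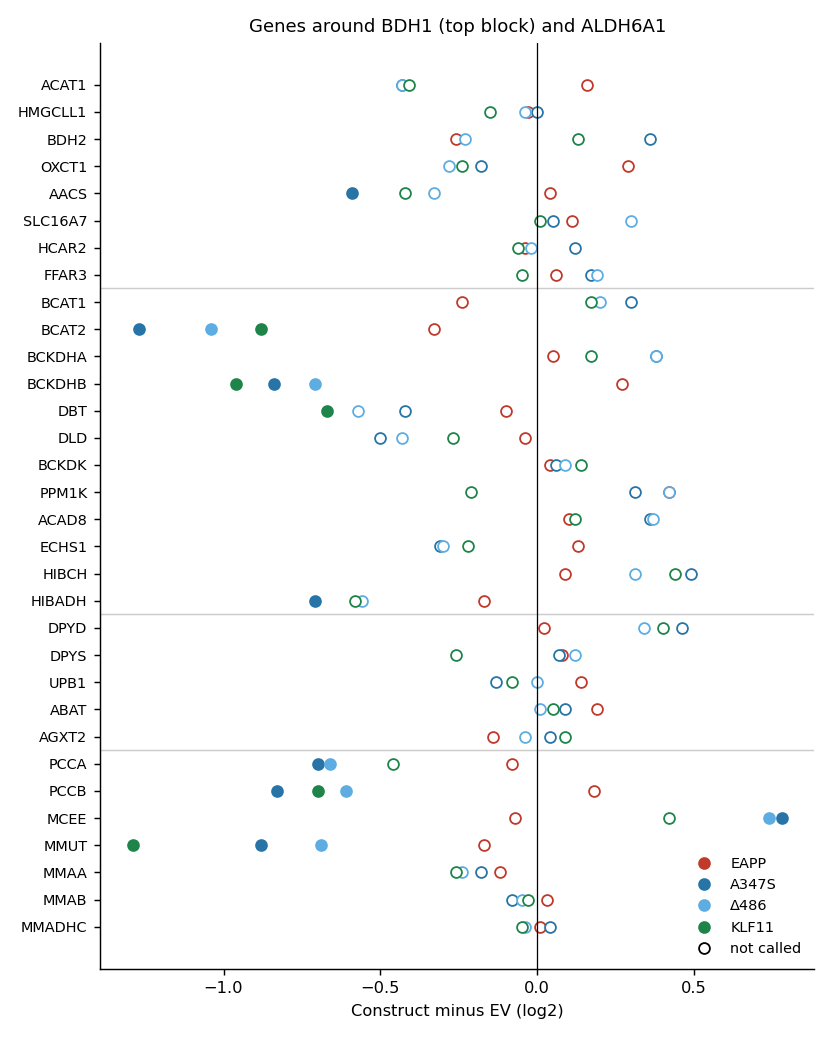
Difference from EV (log2, horizontal axis) with EAPP, A347S, Δ486 and wild type KLF11 for genes of ketone metabolism, valine breakdown, pyrimidine breakdown and the propionate pathway, in blocks from top to bottom. Filled points were called by limma and open points were not. No EAPP point is filled, and the filled points lie to the left of 0, as for BCAT2 at -1.27 with A347S, except those of MCEE at 0.78 and 0.74.

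Downstream of ALDH6A1, propionyl-CoA is carboxylated and turned into succinyl-CoA. PCCB, a subunit of the carboxylase, read 10.29 and 10.35 with EAPP, 9.36 and 9.28 with A347S, 9.62 and 9.44 with Δ486, 9.46 and 9.42 with wild type KLF11, and 10.12 and 10.17 with EV. It fell by 0.83 with A347S, by 0.61 with Δ486 and by 0.70 with the wild type, stood at 0.18 with EAPP, and was higher with EAPP than with A347S by 1.00, than with Δ486 by 0.79 and than with the wild type by 0.88. The Δ486 fall was 0.52 without the second Δ486 array, 0.58 without the second EV array and 0.55 after cyclic loess, each short of the fold. PCCA, its partner subunit, fell by 0.70 with A347S and 0.66 with Δ486. These calls were lost at -0.58 without the second A347S array, and at -0.46 without the first Δ486 array or -0.56 without the second EV array. MMUT, the mutase that yields succinyl-CoA, fell most with the wild type, by 1.29, and by 0.88 with A347S and 0.69 with Δ486, and was at -0.17 with EAPP. The epimerase MCEE went the other way and rose by 0.78 with A347S and 0.74 with Δ486, the second of which was 0.51 without the second Δ486 array.

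Of the 18 other aldehyde dehydrogenases, 0 were called higher with any construct against EV. Lower were 5 with A347S, 4 with Δ486 and 2 with the wild type. Over all clusters, 5.35%, 3.23% and 1.78% were lower and 3.63%, 2.38% and 2.21% higher, in that order. For so few genes, 0 higher is close to those shares. ALDH1B1, a mitochondrial acetaldehyde dehydrogenase, fell by 1.30 under A347S, by 0.94 under Δ486 and by 0.83 under the wild type, with EAPP arrays at 9.70 and 9.80 beside EV arrays at 9.81 and 9.77. ALDH7A1, of lysine breakdown, fell by 1.15, 1.08 and 1.00 with A347S, Δ486 and wild type KLF11 and had EAPP arrays at 9.99 and 10.06 beside EV arrays at 10.12 and 10.17. For both genes EAPP thus lay at or just under EV, with differences of -0.04 and -0.12 that did not pass. ALDH2, which clears acetaldehyde, fell by 0.61 with A347S and 0.62 with Δ486, and was at -0.47 without the second A347S array, and at -0.57 with A347S and -0.58 with Δ486 without the second EV array. ALDH3A2, of fatty aldehydes, fell by 0.68 with A347S and was at -0.58 after cyclic loess. ALDH1L2, a mitochondrial folate enzyme, fell by 0.67 with A347S and 1.01 with Δ486, and at -0.84 it was the 1 gene of the 54 to meet the unadjusted criterion with EAPP (limma adjusted p = 0.149). ALDH4A1, which correlated with ALDH6A1, was 0.70 higher with EAPP than with wild type KLF11 (limma adjusted p = 0.00249) and stood at 0.26 with EAPP against EV.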

How the data were processed

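Expression was measured in Panc1 cells on 10 arrays, 2 for each of 5 groups. The deposited log2 values, 1 per transcript cluster, were made by the authors through background subtraction and Robust Multiarray Analysis, and the submitters' processing notes name Partek 6.6. The array's genome build was not given in the sources used here. A further 7908 clusters lacked a gene symbol and were set aside. Of the 20961 kept, 19229 carry 1 symbol and 1732 several, and clusters with several were counted but not named. By gene number 19198 matched RefSeq, with 0 names changed.

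With limma 3.58.1 (R 4.3.3), group means were estimated jointly from the 10 arrays (5 residual degrees of freedom, 4.54 from moderation). Calls needed a Benjamini-Hochberg adjusted p under 0.05 and a 1.5-fold change. The genes named are the members, the 6 clusters just outside the selection, the 5 most and least correlated with each member, list members called against EV (at most 8 a list), the direct pathway neighbours, and genes said to be taken from an ordering or a call. The members and the gene lists were chosen with earlier results of these data known. Promoter windows and gene names came from RefSeq tables (GRCh38.p14). The fit was tested on simulated data. Alternatives covered the threshold, test, scaling, dim clusters, replicate block and single arrays. Deviations of the arrays by replicate number correlated at -0.348 to 0.145 over 10 pairs of groups, of which 6 were positive. With 2 arrays per group these values cannot exclude a shared run or batch.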

Additional observations from a re-analysis of the deposited data

How the results depend on the processing

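Cyclic loess, median centring and each left-out array kept the sign of all BDH1 and ALDH6A1 differences. The second ALDH6A1 cluster had the opposite sign to the brighter one for A347S against EV, at 0.28, and for EAPP against A347S, at -0.07, and it was at 0.00 for wild type KLF11 against EV. Its other values had the same sign, at 0.21 and -0.08 with EAPP and Δ486 against EV, and 0.30 and 0.21 for EAPP against Δ486 and wild type KLF11. The cause was not tested.

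With single arrays left out, BDH1 differed from EV by 1.08 to 1.30 with EAPP, -1.03 to -0.92 with A347S, -1.18 to -1.06 with Δ486 and -1.32 to -1.07 with wild type KLF11, and EAPP exceeded A347S by 2.06 to 2.27, Δ486 by 2.20 to 2.42 and wild type KLF11 by 2.26 to 2.51. For ALDH6A1 these ranges were 0.76 to 0.88, -0.25 to -0.08, -0.34 to -0.22 and -0.92 to -0.71 against EV, and 0.89 to 1.07, 1.05 to 1.15 and 1.53 to 1.73 for EAPP against the others. A347S minus Δ486 was 0.13 to 0.16 for BDH1 and 0.03 to 0.21 for ALDH6A1.

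The number of clusters called with EAPP against EV was 21 with a variance trend and robust moderation, 3 without the dimmest clusters, and 0 by a t-test after adjustment. By the unadjusted criterion it was 38 to 79 with an array left out (79 without the first EAPP array), 15 by the methods' t-test and 75 with unnamed clusters. With an array left out, the calls numbered 1663 to 2229 with A347S, 1173 to 1325 with Δ486 and 736 to 905 with wild type KLF11 against EV, and 1136 to 1488, 675 to 848 and 390 to 674 for EAPP against A347S, Δ486 and wild type KLF11. At an adjusted p alone they were 5946, 4692, 3628, 4899, 3148 and 2254 in that order, and 0 in each by the methods' t-test after adjustment. For A347S against Δ486 there were 22 at an unadjusted p with the fold, and 3 by a t-test at an unadjusted p.

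Of the 54 list genes, limma called 25, 23 and 18 with A347S, Δ486 and wild type KLF11 at an adjusted p alone, 24, 20 and 19 for EAPP against them, and 1 with EAPP against EV under the variance trend. With an array left out the counts were 12 to 16, 7 to 11 and 8 to 9, then 10 to 11, 6 to 9 and 7 to 8, with 0 for EAPP against EV and 1 by its unadjusted criterion. Of the 5 genes most alike to BDH1, 0 were shared by Spearman's rho, 0 over the 5 group means and 3 after cyclic loess, and for ALDH6A1 2, 0 and 3. With 50 bases past the start included, the downstream BDH1 window held 2 CACCC and the ALDH6A1 window 1 CCCCGC and 2 CACCC.

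With the replicate number as a block, the EAPP difference from EV stayed 1.19 for BDH1 and 0.82 for ALDH6A1, and the calls with wild type KLF11 numbered 831. The block moved no count by over 1.5 times, and the adjusted p for A347S against Δ486 was 0.771 and 0.826.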
